A study of Mus musculus with 12 samples.

Results

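The proteins of the cytosolic ribosome were represented in mouse left ventricles (LVs) by 10 microarray probes: Rpl9, Rpl19 and Rpl34 of the large subunit and Rps3, Rps14, Rps16, Rps18, Rps20, Rps27a and Rpsa of the small subunit. The arrays carry no gene names, so a probe was named where its fold and unpaired test p in the deposited values matched an entry of the study's lists of changed genes within a relative tolerance of 2e-05, and the 10 are among 907 probes with a name of 60819 analysed. The members were thus selected on their fold and p between the genotypes after MI: 9 of them came from the list of genes lower in miR-150 cKO and Rps16 from the list of genes higher there. The values of that comparison are therefore given as a description, without a test, as are all others that use the MI arrays. Ribosomal protein genes outside those lists have no name here, except Rpl13a, 1 of 15 housekeeping probes named by accession, so the 10 do not stand for the ribosome as a whole.

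The cytosolic ribosome reads messenger RNA and makes nearly all proteins of the cell. Its small subunit decodes the message and its large subunit joins the amino acids, and each subunit is built from ribosomal RNA and many different proteins, whose genes are usually expressed together and in balance. Heart muscle makes new ribosomes when it grows, and the messenger RNAs of most ribosomal proteins begin with a run of pyrimidines through which growth signals set their translation.

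The 12 arrays held 1 mouse each, 3 per group, all C57BL/6J and 13 to 15 weeks old, with 1 male and 2 females per group. After MI all miR-150 cKO mice were 15 and all miR-150 fl/fl mice 14 weeks old, so age and genotype cannot be told apart there. In sham the miR-150 cKO mice were 15, 14 and 15 and the miR-150 fl/fl mice 14, 14 and 13 weeks old, so age leaned the same way. Mice were miR-150 fl/fl, with both copies of the microRNA gene miR-150 flanked by loxP sites and no Cre, or miR-150 cKO, the same floxed mice carrying alpha-MHC-Cre, which is active in cardiomyocytes and leaves miR-150 in the other cells of the ventricle. The controls carry no Cre, so deletion of miR-150 and presence of Cre cannot be told apart. Mice of both genotypes had a sham operation or myocardial infarction (MI), for which the left anterior descending coronary artery was tied off for good, and LVs were taken 4 weeks later. RNA was freed of ribosomal RNA before labelling, so these values concern the messenger RNAs of the proteins and not the ribosomes. Values are log2 spot signal minus the 75th percentile of the array, and a value belongs to 1 probe and is not set against that of another. The RNA came from all cells of the LV, so fewer cells of a type and less RNA per cell cannot be told apart.

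All 10 probes were well above background on all 12 arrays. Of all probes, from 74.1% to 90.3% were well above background on an array. The lowest shares, 74.1% and 76.1%, were on sham miR-150 cKO replicates 2 and 3, and the highest on replicate 1 of that group. The 75th percentile of the signal ran from 330 to 442 on the sham arrays, from 367 to 393 in MI miR-150 fl/fl and from 417 to 469 in MI miR-150 cKO. Scan times and positions place MI miR-150 fl/fl replicate 3 on slide 1 together with all 3 arrays of MI miR-150 cKO, and the rest on slide 2, so after MI genotype and slide are nearly the same split. In sham all miR-150 fl/fl arrays and miR-150 cKO replicate 1 were in row 1 of slide 2, and miR-150 cKO replicates 2 and 3 in row 2. One array stood apart: sham miR-150 fl/fl replicate 1 was the lowest sham array for 9 of the 9 members other than Rps16, and the lowest of all 12 arrays for 6 of them. Its mouse was the only male of its group. On that array the median of 2742 bright probes, those averaging 4 or more log2 units above the 75th percentile, was also 0.33 below their mean over the 12 arrays. Results that rest on it are given with and without it.

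The start sites of 7 members are in the RefSeq promoter table of mouse assembly GRCm38.p6, and the sequences that follow show what lies before the start of members that were lower in MI miR-150 cKO and of Rps16, which was higher. Rps14, Rps20 and Rps27a are named only. Capitals mark the string CTTCCG or its reverse complement, the core that factors of the ETS family such as GABP can bind, and each run is 5′ to 3′ on the strand of the gene.
Rpl34, chr3:130730399-130730498, minus strand, bases -100 to -1 before the start: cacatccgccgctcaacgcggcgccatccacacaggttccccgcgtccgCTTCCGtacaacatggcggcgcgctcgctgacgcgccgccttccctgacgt
Rpl19, chr11:98026610-98026709, plus strand, bases -100 to -1: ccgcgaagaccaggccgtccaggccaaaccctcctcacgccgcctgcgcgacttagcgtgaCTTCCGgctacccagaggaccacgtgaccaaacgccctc
Rpsa, chr9:120127666-120127765, plus strand, bases -100 to -1: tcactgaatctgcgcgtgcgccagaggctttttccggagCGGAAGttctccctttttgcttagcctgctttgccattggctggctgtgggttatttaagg
Rps18, chr17:33955666-33955765, minus strand, bases -100 to -1: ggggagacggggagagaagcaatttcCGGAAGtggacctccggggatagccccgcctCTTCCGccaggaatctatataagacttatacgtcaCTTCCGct
Rpl9, chr5:65391432-65391531, minus strand, bases -100 to -1: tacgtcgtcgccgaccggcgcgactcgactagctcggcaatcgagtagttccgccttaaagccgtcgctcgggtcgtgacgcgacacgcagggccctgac
Rps16, chr7:28350509-28350608, plus strand, bases -180 to -81: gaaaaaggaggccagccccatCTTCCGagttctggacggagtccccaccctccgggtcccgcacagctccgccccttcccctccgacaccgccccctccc

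CTTCCG, read on both strands from 250 before to 50 after the start, was present for 6 of the 7 members: Rpl19, Rpl34, Rps16, Rps18, Rps3 and Rpsa. It was in 16.9% of all 32851 promoters of the table and in 61.8% of the 68 promoters of 58 cytosolic ribosomal protein genes. For this and the other strings members are counted by gene, over all its listed starts, and the background by promoter, so the units differ. Rpl19 and Rpl34 have more than 1 listed start, and a listed start of Rpl19 had no CTTCCG. Rps16 also held it, at -159, so its printed run is from -180 to -81. The printed runs of Rpl34, Rpl19, Rpsa and Rps18 hold it within the bases -100 to -1. Rpl9 held none, and Rps3 held it at 39, after the start. Whether the presence or place of CTTCCG goes with the pattern of a member was not tested. The longer string CCGGAAG, which overlaps it, was present for 4 of the 7 members and in 8.86% of all promoters. TATAAA, CTCGCGAGA and GCCATCTTG were found for 0 of the 7, against 13.6%, 0.676% and 1.24% of all promoters. AAGATGG was found for Rps16 alone of the 7 and in 6.34% of all promoters. A start at C followed by at least 4 further pyrimidines, read from the listed start on the gene's strand, was found for 1 member, Rps18, in 2.51% of all promoters and in 20.6% of the ribosomal ones.
The first 12 bases of Rps18, chr17:33955654-33955665, minus strand, with the pyrimidine run in capitals: CTCTCTTCCaca
All of these are matches of letters at listed starts, which may lie some bases from the start used in the heart. The strings were chosen after the values of the members were known.

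In the large subunit, Rpl9 codes for a protein at the base of the stalk of the subunit. Its probe read 5.89, 6.99 and 6.82 in sham miR-150 fl/fl, 6.60, 6.86 and 7.07 in sham miR-150 cKO, 6.75, 6.82 and 6.83 in MI miR-150 fl/fl, and 6.12, 6.17 and 6.76 in MI miR-150 cKO, for replicates 1 to 3 in turn. Replicates 1 and 2 of MI miR-150 cKO and replicate 1 of sham miR-150 fl/fl were low, and MI miR-150 cKO replicate 3 lay within the range of the MI miR-150 fl/fl arrays. Rpl34 read 3.66, 4.88 and 4.61 in sham miR-150 fl/fl, 4.46, 4.87 and 5.07 in sham miR-150 cKO, 4.61, 4.63 and 4.62 in MI miR-150 fl/fl, and 4.01, 4.00 and 4.63 in MI miR-150 cKO. Its MI miR-150 fl/fl arrays were the tightest of any group of any member, with an SD of 0.007 (n = 3), and the third MI miR-150 cKO array again stood at their level. Rpl19, whose protein bridges the subunits, read -1.13, -0.54 and -0.43 in sham miR-150 fl/fl, -0.39, -0.64 and -0.43 in sham miR-150 cKO, -0.31, -0.15 and -0.62 in MI miR-150 fl/fl, and -1.11, -1.22 and -0.95 in MI miR-150 cKO. For Rpl19 all 3 MI miR-150 cKO arrays were below all MI miR-150 fl/fl and all sham miR-150 cKO arrays.

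In the small subunit, Rps14, a protein of the platform near the decoding site whose gene is deleted in a form of human anaemia, had the largest MI genotype difference of the 9 lower members. It read 2.46, 3.26 and 3.44 in sham miR-150 fl/fl, 3.17, 3.49 and 3.49 in sham miR-150 cKO, 3.42, 3.56 and 3.41 in MI miR-150 fl/fl, and 2.43, 2.29 and 2.87 in MI miR-150 cKO. The MI miR-150 cKO range lay below every array of the other groups but sham miR-150 fl/fl replicate 1. Rpsa, also known as the laminin receptor and part of the head and body junction of the subunit, read 1.63, 2.07 and 2.19 in sham miR-150 fl/fl, 2.28, 2.13 and 2.07 in sham miR-150 cKO, 2.18, 2.55 and 1.90 in MI miR-150 fl/fl, and 1.63, 1.31 and 1.65 in MI miR-150 cKO. Rps27a, made as a fusion with ubiquitin, read 4.03, 4.88 and 4.69, then 4.39, 4.85 and 4.54, then 4.91, 5.35 and 4.81, and in MI miR-150 cKO 4.04, 4.43 and 4.49, with the groups in the same order. The MI miR-150 cKO arrays of both genes lay below the MI miR-150 fl/fl arrays, while those of Rps27a overlapped sham miR-150 cKO.

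Rps3, a protein at the entry of the messenger RNA channel that also takes part in DNA repair, had MI miR-150 fl/fl arrays between 6.64 and 6.67 and MI miR-150 cKO arrays at 6.09, 5.99 and 6.51. Its sham arrays ran from 5.92 to 6.87 in miR-150 fl/fl and from 6.64 to 6.95 in miR-150 cKO. Rps18 and Rps20, both in the head of the subunit, gave the same picture. Rps18 ran from 2.81 to 2.88 in MI miR-150 fl/fl and from 2.07 to 2.67 in MI miR-150 cKO, and Rps20 from 3.84 to 4.23 and from 3.25 to 3.77. For Rps3, Rps18 and Rps20 the third MI miR-150 cKO array was the highest of its group, as it was for 9 of the 9 members other than Rps16.

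Rps16, a protein of the head of the small subunit that reaches the decoding centre, ran the other way. Its probe read -1.55, -1.57 and -1.70 in sham miR-150 fl/fl, -1.70, -1.37 and -1.67 in sham miR-150 cKO, -1.77, -1.96 and -1.46 in MI miR-150 fl/fl, and -0.83, -0.76 and -1.05 in MI miR-150 cKO. The 3 MI miR-150 cKO arrays were above all 9 other arrays. Rps16 was named for being higher there than in MI miR-150 fl/fl, and the share of all probes with such a separation was not counted. In pairs of groups, 15.4% of all probes were higher without overlap in MI miR-150 cKO than in MI miR-150 fl/fl. Against sham miR-150 cKO the share was also 15.4%. Sham miR-150 fl/fl replicate 1, low for the 9 other members, was not low for Rps16. Many mouse ribosomal protein genes have processed pseudogenes and other copies, and the files used here hold no probe sequences, so which transcripts each probe detects was not tested.

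**Figure D1:**
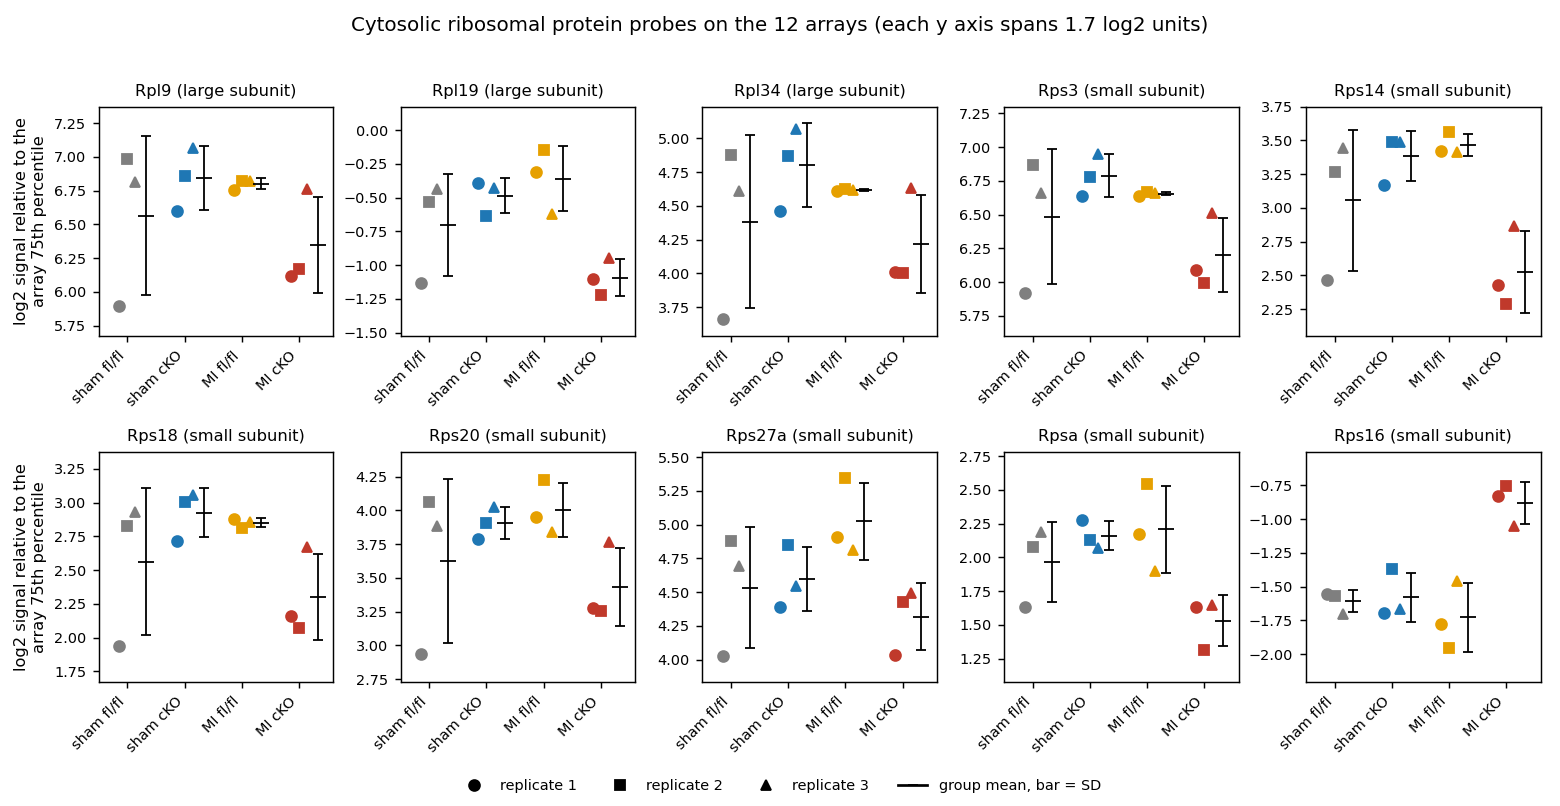
Log2 signal relative to the array's 75th percentile (y axis) of the 10 probes in the 4 groups (x axis), with a point per mouse, its shape giving the replicate, and the group mean with its SD beside the points. In the panels of the 9 other genes sham fl/fl replicate 1 is the lowest sham point and MI cKO replicate 3 the highest MI cKO point. In the Rps16 panel the 3 MI cKO points, from -1.05 to -0.76, lie above all others. Rps16 was named for being higher in MI cKO than in MI fl/fl.

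The sham comparison answers whether loss of miR-150 in cardiomyocytes goes with other levels of these messenger RNAs without infarction, and its means come from 6 arrays that did not choose the members. Its standard errors pool the spread within all 4 groups, those of the MI arrays included. No member passed: 0 of 10 had a fold of at least 1.5 with an unadjusted p under 0.05, against a background of 2.75% of 54232 probes tested. With limma 0 of 10 had an adjusted p under 0.05, as had 0.0% of all probes, and 0 of 10 had an unadjusted p under 0.05, against 9.18%. In a fit of the 6 sham arrays alone, and with the methods' t-test, the counts of members were also 0 and 0. By the methods' t-test 0.0% of all probes had an adjusted p under 0.05 and 4.82% an unadjusted one. All 10 differences were above 0, as were 44.1% of all probes, and their median was 0.28 on the log2 scale against -0.03 over all probes. The differences ran from 0.03 for Rps16 to 0.42 for Rpl34 (SE 0.29, limma adjusted p = 0.647), whose 95% interval from -0.23 to 1.07 includes a level 1.5-fold higher in miR-150 cKO, a log2 difference of 0.585. Rps16 had the narrowest interval, from -0.29 to 0.35 (limma adjusted p = 0.951). The groups did not separate for any of the 10, against 10.8% of all probes. With sham miR-150 fl/fl replicate 1 left out the median was 0.02, and the differences of Rpl9, Rpl19, Rps20 and Rps27a then lay below 0. The positive median rests on that single array. With slide and row as a block it was 0.13, and Rps16 and Rps27a then lay below 0.

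After MI, the comparison of miR-150 cKO with miR-150 fl/fl is the one that chose the members, and its values are a description. The 9 lower members differed by -0.40 for Rpl34 to -0.94 for Rps14 (SE 0.29 and 0.24), with a median of -0.57, and Rps16 by 0.85 (SE 0.14). Over all probes the median was 0.005. The groups did not overlap for 7 of the 9 lower members, all but Rpl9 and Rpl34, beside 13.1% of all probes lower without overlap, and for Rps16 beside 15.4% higher. In the deposited values, where the study's limit of 1.5-fold was set, the member nearest the limit was Rpl34, lower by 1.504-fold, followed by Rpl9 at 1.53-fold. Just outside the limit was Rpl13a, a ribosomal protein probe named by its accession, at 1.45-fold lower. On slide 1 alone, where 3 MI miR-150 cKO arrays stood beside 1 MI miR-150 fl/fl array, the 9 differences had a median of -0.47 and Rps16 differed by 0.58. In the fit with slide as a block the median over all 10 was -0.46, and Rps16 was again at 0.58.

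Both comparisons of MI with sham share arrays with the one above and with each other, and are given side by side. In miR-150 fl/fl the 9 members were higher after MI by 0.17 for Rps3 to 0.49 for Rps27a, and Rps16 differed by -0.12 (SE 0.14). The groups overlapped for all 10, beside 8.62% of all probes that did not overlap. With sham miR-150 fl/fl replicate 1 left out the median of the 10 differences was 0.005 in place of 0.26. In miR-150 cKO the 9 members were lower after MI, by -0.28 for Rps27a to -0.86 for Rps14, and Rps16 was higher by 0.70 (SE 0.14). Here 6 of the 9 did not overlap, all but Rpl9, Rpl34 and Rps27a, beside 13.0% of all probes, and Rps16 did not overlap either, beside 15.4%. In miR-150 cKO the 2 operations were split wholly between the slides. When the fit held a slide term, the median of the 10 was -0.38 in place of -0.59 and Rps16 was at 0.29 in place of 0.70, and the part of the slide in these values was not tested further. That term is set by the MI miR-150 fl/fl arrays, of which 1 was on slide 1. The genotype difference after MI minus that after sham ran from -0.73 for Rpl9 to -1.27 for Rps14 and was 0.82 for Rps16, with a median of -0.84 over the 10. With sham miR-150 fl/fl replicate 1 left out it was -0.51.

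**Figure D2:**
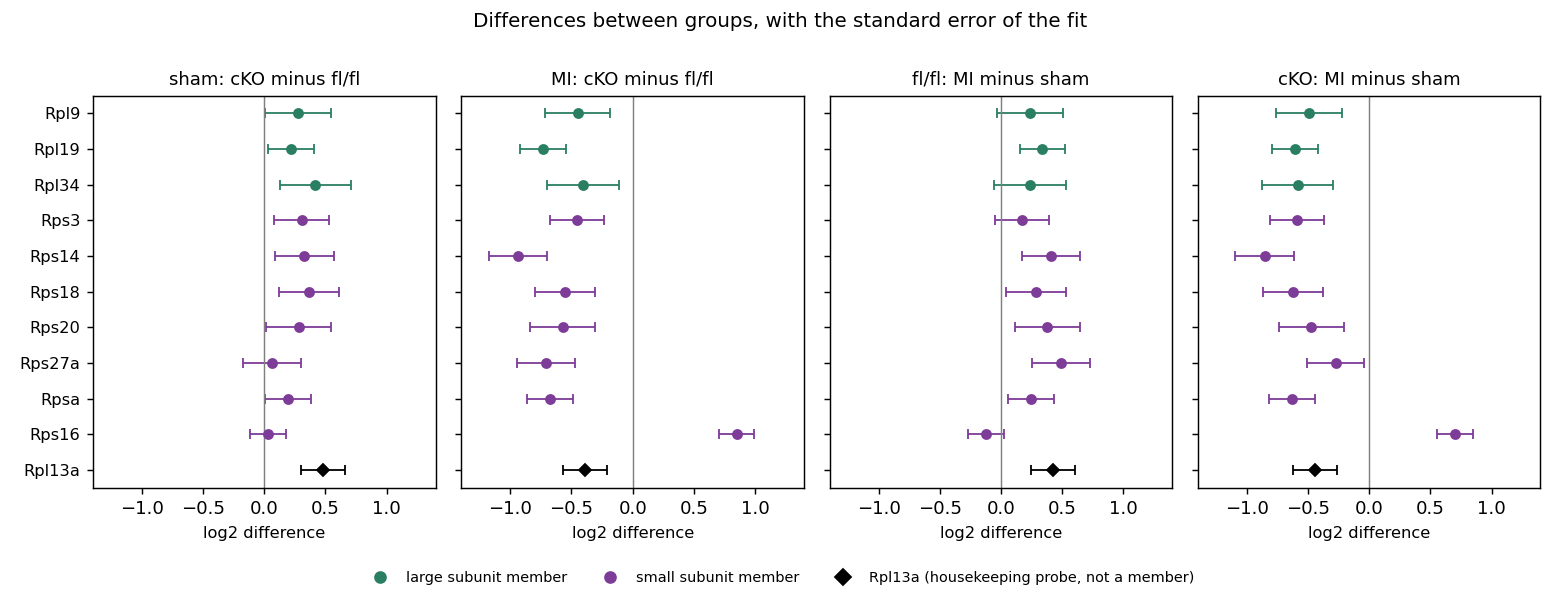
Log2 differences (x axis) of the 10 members and of Rpl13a (y axis) in the 4 comparisons, with the standard error of the limma fit as bars. The 9 lower members lie left of 0 in both comparisons that hold MI cKO, from -0.28 to -0.94, Rps16 lies at 0.85 and 0.70, and all members lie between 0.03 and 0.42 in sham.

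Large and small subunit members were compared by their medians, and the gap between these after MI depended on the slide term. After MI the median genotype difference was -0.45 over the 3 large subunit members and -0.63 over the 6 small subunit members other than Rps16, and in sham it was 0.28 and 0.29. All of these members had passed the same limit of 1.5-fold after MI. The large subunit median minus that of all 7 small subunit members was 0.12 after MI and 0.004 for MI against sham in miR-150 cKO, and with a slide term in the fit -0.0075 and -0.31. With each probe centred on its mean over the 12 arrays, the large subunit mean was -0.49, -0.51 and -0.01 in MI miR-150 cKO and the small subunit mean without Rps16 was -0.50, -0.55 and -0.11. On sham miR-150 fl/fl replicate 1 they were -0.69 and -0.62. The 2 means differed by no more than 0.16 on any array, with the widest gap on sham miR-150 cKO replicate 3. Over the 9 members other than Rps16 the centred mean of sham miR-150 fl/fl was -0.07 ± 0.50 (SD, n = 3) and that of sham miR-150 cKO was 0.20 ± 0.13. After MI it was 0.24 ± 0.12 for miR-150 fl/fl and -0.37 ± 0.25 for miR-150 cKO. The spread in sham miR-150 fl/fl was the widest and came from replicate 1, whose value of -0.64 was below that of every MI miR-150 cKO array.

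Among the members, Rps20 stayed closest to the mean of the others, with a root-mean-square difference of 0.09 over the 12 arrays, followed by Rps18 and Rps3 at 0.10 each. Rps27a and Rpsa strayed most of the 9, at 0.23 and 0.21, and Rps16 was at 0.65. The arrays of the 9 members are the same 12, so depth, labelling and slide are shared by all of these values. The median of the 2742 bright probes was -0.04, 0.03 and 0.21 on the MI miR-150 cKO arrays, where the mean of the 9 members was -0.50, -0.54 and -0.08. It was lowest on sham miR-150 fl/fl replicate 1, at -0.33, and on MI miR-150 fl/fl replicate 2, at -0.28, where the members averaged -0.64 and 0.37. The part of an array-wide shift in the members' values was not tested.

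**Figure D3:**
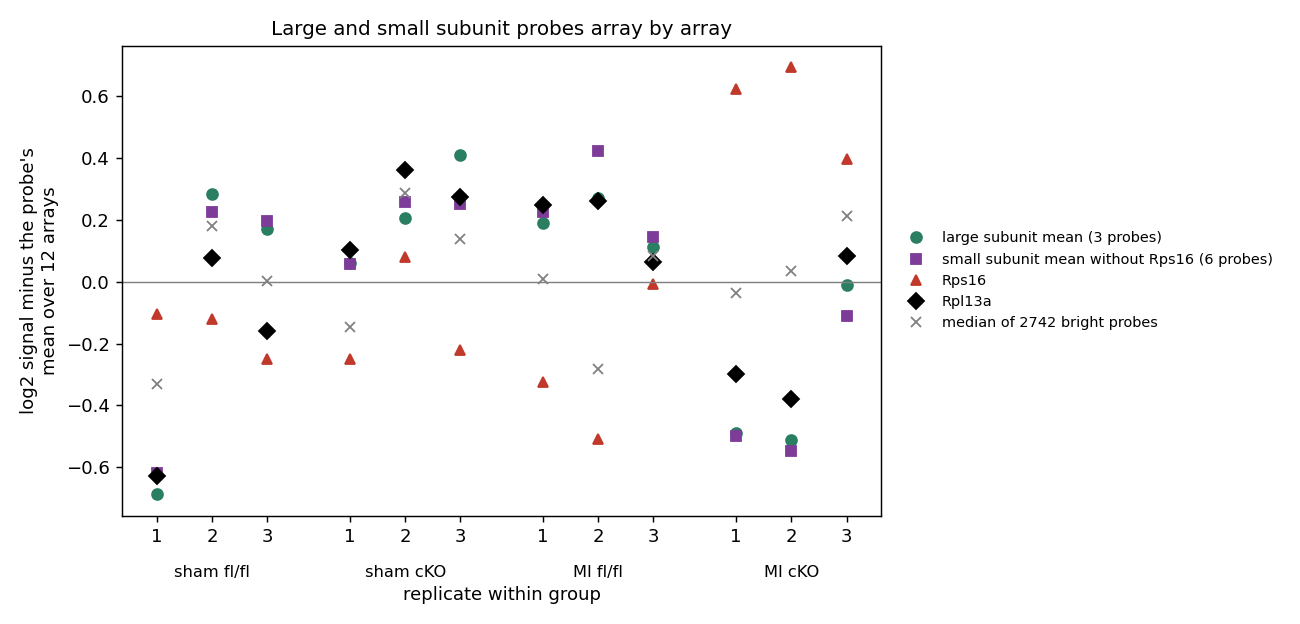
Log2 signal of each probe minus its mean over the 12 arrays (y axis) on every array (x axis), as the mean of the 3 large subunit members, the mean of 6 small subunit members, Rps16, Rpl13a and the median of 2742 bright probes. Large and small subunit points lie within 0.16 of each other on each array, and Rps16 points up to 0.69 in MI cKO where they fall to -0.55.

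Rpl13a, a large subunit protein that also silences inflammatory messenger RNAs and a common reference gene, is on the array as a housekeeping probe of 20 spots and was named through its RefSeq accession, outside the rule for naming the others and without use of its values. It can therefore be tested in every comparison. After MI, though, genotype and slide were nearly the same split, and in miR-150 cKO the operations were split wholly between the slides. Its p-values there do not separate group from slide. It read 2.42, 3.12 and 2.89 in sham miR-150 fl/fl, 3.15, 3.41 and 3.32 in sham miR-150 cKO, 3.30, 3.31 and 3.11 in MI miR-150 fl/fl, and 2.75, 2.67 and 3.13 in MI miR-150 cKO. The SD between its spots on an array was from 0.029 to 0.046, which covers the reading of the spots and not the spread between mice. In sham, miR-150 cKO was above miR-150 fl/fl by 0.48 (SE 0.18), without overlap, beside 10.8% of all probes that did not overlap. The nearest arrays were miR-150 cKO replicate 1 at 3.15 and miR-150 fl/fl replicate 2 at 3.12. After MI the genotypes differed by -0.39 (SE 0.18). The sham difference had a limma adjusted p of 0.512 and the MI difference one of 0.311. MI minus sham was 0.43 in miR-150 fl/fl (limma adjusted p = 1) and -0.44 in miR-150 cKO (limma adjusted p = 0.199), and the genotype difference after MI minus that after sham was -0.87 (SE 0.26, limma adjusted p = 0.246). No adjusted p was under 0.05, while the limma p before adjustment was 0.023 in sham, 0.055 after MI, 0.038 and 0.033 for MI against sham and 0.0062 for the last. Of all 54232 probes tested, 4976, 9111, 2288, 11323 and 7285 had such an unadjusted p under 0.05, in the same order. Two-sided exact permutation tests gave p = 0.1 in sham and for MI against sham in miR-150 cKO, the smallest that 3 against 3 arrays allow, and p = 0.2 for the other 2 comparisons. The sham difference was 0.29 with sham miR-150 fl/fl replicate 1 left out. MI minus sham in miR-150 fl/fl was then 0.23, and the genotype difference after MI minus that after sham was -0.68. On slide 1 alone the MI genotype difference was -0.26.

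On the same arrays, the differences of Rpl13a had the sign of those of the 9 lower members in each of the 4 comparisons. Its root-mean-square difference from their mean was 0.15, against 0.42 for the median probe tested, and 286 probes were closer. The other 14 housekeeping probes, from Actb to Tuba1b, had a median genotype difference of -0.003 after MI, with 7 above 0 and 7 below, and of 0.18 in sham, with 10 above 0. Of these, Gusb, Nono, Ppia, Tfrc and Tuba1b also had the signs of the 9 lower members in all 4 comparisons, and the rest did not. Ppia differed by 0.50 in sham, -0.35 after MI and 0.38 for MI against sham in miR-150 fl/fl. In miR-150 cKO it averaged 6.84 after MI and 7.31 in sham. These signs were thus not particular to ribosomal protein probes, and the share of all probes with them was not counted. With limma 0 of the 14 had an adjusted p under 0.05 in either comparison, while 0 in sham and 1 after MI had an unadjusted p under 0.05. After MI 0.00184% of all probes passed the first limit and 16.8% the second. On sham miR-150 fl/fl replicate 1, 7 of the 14 were at their lowest of the sham arrays and 4 at their highest.

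Other genes of translation were taken from lists of the mitochondrial ribosome, the rest of the cytosolic ribosome, translation factors and RNA polymerases I and III. A name was found for 10 of 78, 2 of 71, 4 of 39 and 2 of 22 of them, and all of these except Rpl13a carry a name through one of the study's lists of changed genes. In sham, 2 of the 18 were past the limits, beside the 2.75% of all probes: Mrps2, a mitochondrial small subunit protein, at -1.67, and Gspt2, a termination factor, at 1.46. Both were named from that very comparison, so this is a description. With limma 0 of the 18 had an adjusted p under 0.05 and 3 had an unadjusted p under 0.05, against 9.18% of all probes. Mrps2 and Gspt2 are among the 3 through the way they were named, and the other is Rpl13a. The methods' t-test gave 0 and 2. The 9 mitochondrial ribosomal proteins other than Mrps2 had a median sham difference of 0.11.

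After MI the 10 mitochondrial ribosomal proteins, which build the ribosome that translates the few proteins coded in mitochondria, had a median genotype difference of -0.43. Of these 7 were below 0, from -0.40 for Mrpl46 to -0.69 for Mrpl10, and 3 above, Mrpl40 at 1.36, Mrps27 at 0.94 and Mrps2 at 0.30. Without overlap, 5 of the 10 were lower, beside 13.1% of all probes, and 2 were higher, beside 15.4%. Mrpl42, 1 of the 5, ran from 4.12 to 4.56 in MI miR-150 cKO and had its lowest MI miR-150 fl/fl array at 4.69. Rpl22l1, a paralog of the large subunit protein Rpl22, differed by -0.63 (SE 0.42) with overlapping groups. Polr3g and Gtf3c5, which serve RNA polymerase III and thus the making of 5S and transfer RNA, differed by -0.85 and -0.66. Eif4ebp2, a repressor of the cap-binding factor eIF4E, differed by 0.94. Its MI miR-150 cKO arrays, from 2.61 to 3.15, were above its MI miR-150 fl/fl arrays, from 1.48 to 2.46, beside the same 15.4% of all probes. Eif2b5, the catalytic subunit of the exchange factor eIF2B, differed by -0.57, and Pabpc5, a poly(A) binding protein, by 0.62. All but Rpl13a, Mrps2 and Gspt2 owe their name to this comparison.

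**Figure D4:**
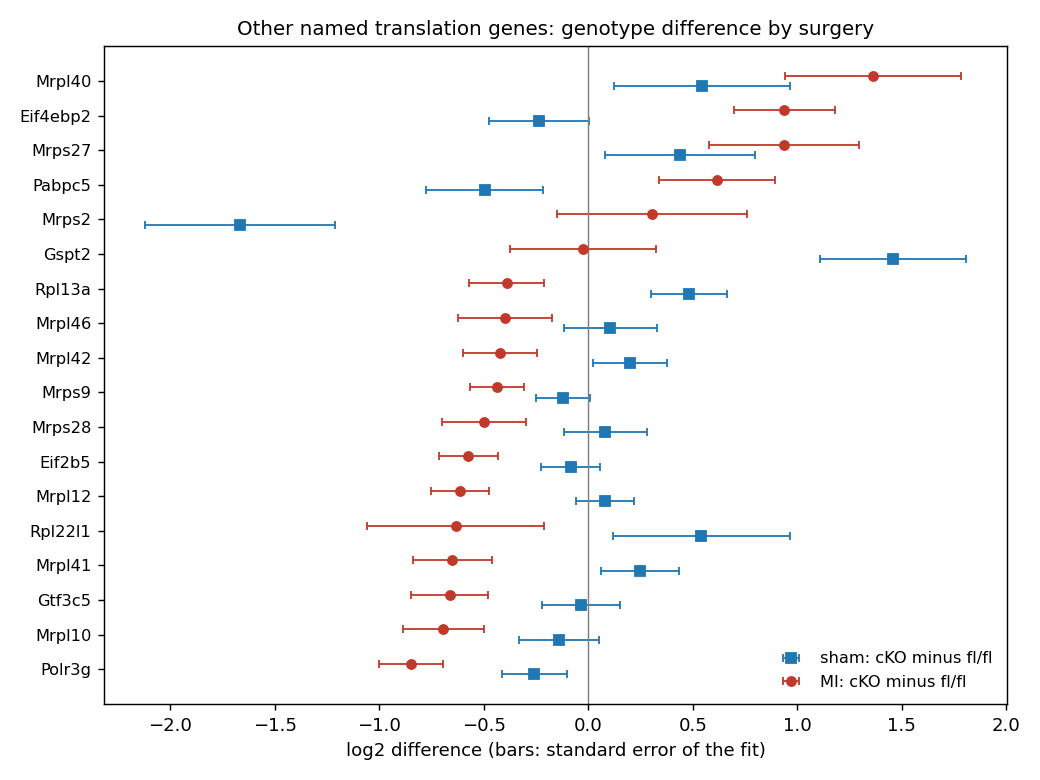
Genotype differences (log2, x axis) of the 18 other named translation genes (y axis) in sham (squares) and after MI (circles), with standard errors of the limma fit. After MI 13 lie left of 0 and 5 right of it, and in sham the 2 far points are Mrps2 at -1.67 and Gspt2 at 1.46.

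Of the named probes outside these lists, the 5 closest to the mean of the 9 members over the 12 arrays were Tbca, Lsm7, Dph3, Lsm3 and Eml4, at root-mean-square differences of 0.09, 0.11, 0.11, 0.11 and 0.12. A probe with no variation at all would be at 0.34. All named probes but the 15 housekeeping ones owe their name to the study's lists of changed genes, drawn from these same arrays. The naming thus favoured such likeness, to the members and to Rps16. Of all probes tested, members included, 19 were closer than Tbca and 86 closer than Eml4. Tbca is a tubulin folding cofactor, Lsm7 and Lsm3 belong to the ring of proteins on U6 snRNA and decaying messenger RNA, Dph3 serves the diphthamide modification of elongation factor eEF2, and Eml4 binds microtubules. The 3 closest to Rps16 were Cacnb1, a calcium channel subunit, at 0.10, Lman1l, a lectin of the secretory pathway, at 0.10 and Mef2c, a muscle transcription factor, at 0.11. Mef2c averaged 2.29 in MI miR-150 cKO and from 1.61 to 1.73 in the other groups.

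The LV holds several cell types. Of the cardiomyocyte markers 5 of 10 had a named probe, Myh7, Tnnt2, Atp2a2, Nppa and Nppb, all well above background on all 12 arrays. Their summed level, in log2 relative to the 75th percentile, was from 7.23 to 7.57 in sham miR-150 fl/fl, 7.71 to 8.85 in sham miR-150 cKO, 7.27 to 7.52 in MI miR-150 fl/fl and 8.98 to 9.22 in MI miR-150 cKO. For 5 of 10 fibroblast markers it was 3.11 to 4.24, 4.74 to 5.21, 5.40 to 5.46 and 5.17 to 6.16 in the same order. For 4 of 10 macrophage markers it was 4.02 to 4.95, 5.16 to 5.62, 5.03 to 5.27 and 4.72 to 5.39, and 0 of 5 endothelial markers had a name. The cardiomyocyte sum was highest in MI miR-150 cKO, where the 9 members were low and Rps16 high. Sums were taken over linear signals, so bright probes weigh most, and they do not count cells. All of these markers carry a name through the study's lists, Tnnt2 from the lower side after MI and Myh7, Atp2a2 and Nppa from the higher. Naming from the higher side favoured that rank of the cardiomyocyte sum. The part of the cell makeup in the members' values was not tested.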

How the data were processed

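For 12 mice, 3 in each of 4 groups taken from the sample labels, the authors deposited linear spot intensity, from which Agilent Feature Extraction 11.0.1.1 had subtracted background and which was not scaled between arrays. The authors' own normalized log2 values, whose quartiles are alike across arrays, named the probes and served as an alternative. Nothing states that groups were handled in parallel, so p-values set group differences against the spread between these mice within groups. A difference between slides or rows that goes with a group enters the group difference and is not covered by that spread.

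Intensities of 60819 probes were taken to log2 and the array's 75th percentile was subtracted. Flagged spots (435, 0.0593%) were treated as missing, and 0 were saturated. The 54232 probes that stood well above background on 3 or more of the 12 arrays were fitted with limma 3.58.1 in R 4.3.3 as 4 group means, with Benjamini-Hochberg adjustment over all of them. The limits were an unadjusted p of 0.05 together with a 1.5-fold difference, and adjusted p-values were read at 0.05. Precision is limited by the number of arrays (8 residual degrees of freedom). Python 3.11.15, numpy 2.4.6, pandas 2.3.3, scipy 1.17.1 and matplotlib 3.10.9 served for summaries, exact tests and figures, and the fit was tested on simulated data.

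The 963 entries of the study's lists each matched 1 probe, which named 892 probes, and 15 housekeeping probes were named by accession, which is outside the naming rule. Genes named are the members, every named gene of the translation lists, the 5 named probes most like the mean of 9 members and the 3 most like Rps16. Markers were named beside these. Members and lists were chosen with earlier results of these data known. Promoters are RefSeq's for GRCm38.p6. The array headers give build mm9, whose coordinates were not used.

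The alternatives were the authors' values, quantile normalization, normexp (offset 50), no filter, a filter on all 12 arrays, the compared groups alone, the methods' t-test, sex as a covariate, blocks for replicate number, slide, and slide and row, and leaving out each array. Leaving out the sham arrays of slide 2 row 2 and using no scaling were added after seeing the data.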

Additional observations from a re-analysis of the deposited data

How the results depend on the processing

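The direction of the median over the 10 members was the same in all 5 comparisons under every alternative. In the MI genotype difference the choice of members had set that direction beforehand, so its constancy there tests nothing. The other comparisons that use MI arrays are not independent of that choice. For the sham genotype difference and for MI in miR-150 fl/fl the lowest medians, 0.02 and 0.005, hardly have a direction. The median moved beyond the spread between arrays only for the genotype by surgery difference, where leaving out sham miR-150 fl/fl replicate 1 gave -0.51. Leaving out each array in turn gave medians from 0.02 to 0.46 for the sham genotype difference, -0.73 to -0.46 for the MI genotype difference, 0.005 to 0.43 for MI in miR-150 fl/fl, -0.69 to -0.48 for MI in miR-150 cKO and -0.99 to -0.51 for the genotype by surgery difference. With no scaling between arrays the median of all probes itself was 0.26 in the MI genotype difference and 0.33 in MI in miR-150 cKO, and relative to these the 9 members other than Rps16 were at -0.58 and -0.65.

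Large minus small subunit medians depended on the slide. With slide as a block they were -0.0075 for the MI genotype difference, -0.16 for MI in miR-150 fl/fl, -0.31 for MI in miR-150 cKO and -0.065 for the genotype by surgery difference, while a block for slide and row gave -0.0075, -0.26 and -0.37 for the first 3 of these, against 0.12, -0.05, 0.004 and 0.03 without a block. Leaving out an array gave 0.069 to 0.22, -0.16 to 0.027, -0.046 to 0.057 and -0.091 to 0.11 in the same order. The cause was not tested.

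In sham, Rps16 was at -0.027 with normexp and -0.0895 under a block for slide and row or on the slide 2 row 1 arrays alone, and Rps27a at -0.0575 with quantile normalization, -0.062 with the authors' values and -0.15 under a block for slide and row or on the row 1 arrays. Leaving out an array gave -0.0006 to 0.35 for Rpl19, -0.059 to 0.49 for Rpl9, -0.076 to 0.088 for Rps16, -0.065 to 0.50 for Rps20 and -0.19 to 0.23 for Rps27a. From 0 to 1 members were past the limits when an array was left out, the 1 without sham miR-150 fl/fl replicate 2. Of the other translation genes, 1 in place of 2 was past the limits with normexp, with a filter on all 12 arrays, under a block for slide and row and on the row 1 arrays, and 2 to 5 when an array was left out, the 5 without sham miR-150 cKO replicate 1.

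Replicate numbers do not pair these mice: residuals of arrays with the same number correlated from -0.28 to 0.27, with 6 of 18 pairs above 0.1. With replicate number as a block the sham median stayed at 0.28, with 0 of 10 members past the limits. The 3 arrays a group limit what can be seen, and a sham interval such as that of Rpl34 includes a fold of 1.5.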
